A study of Mus musculus with 12 samples.

Results

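The genes described here are 6 genes of metal handling in the mouse retina: the metallothioneins Mt1, Mt2 and Mt3, the zinc exporters Slc30a1 and Slc30a3, and the importer Slc39a14. They were taken by name, with earlier results of these data known, and make up 6 of the 24340 genes in the table. Each was followed across the 4 groups and between the eyes of each mouse.

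The 12 libraries were made from the left and right retinas of 6 p16-3MR mice aged 12 to 16 weeks, 1 library per retina. One eye of each mouse was held at an intraocular pressure (IOP) of 85 to 90 mm Hg for 60 min by infusing saline into the anterior chamber, and the other eye was the control. Mice 1, 2 and 5 then received ganciclovir (GCV) at 25 mg/kg once a day, mice 3, 4 and 6 were given PBS, and retinas were taken on day 3. All mice, controls included, carried the p16-3MR transgene, in which the regulatory region of p16 drives a fusion of luciferase, red fluorescent protein and a viral thymidine kinase, so that GCV becomes toxic in cells in which that region is active. This gave 4 groups of 3 retinas: control without GCV, IOP-treated without GCV, control with GCV and IOP-treated with GCV. No mouse lacked the transgene, and each control retina was the fellow eye of an IOP-treated one.

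Metallothioneins are small cysteine-rich proteins that bind zinc and copper and buffer them in the cytosol. Mt1 and Mt2 are found in most tissues, with glia as a main source in nervous tissue, and are switched on by zinc through the transcription factor MTF1, by glucocorticoids and by cytokines of the interleukin-6 family. Mt3 is the form of brain and neurons and responds little to metals. Zinc leaves the cytosol through SLC30 (ZnT) exporters and enters it through SLC39 (ZIP) importers. In the retina, zinc is abundant in photoreceptors, the pigment epithelium and some synapses, and injury of the optic nerve is known to shift its distribution.

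Values are FPKM (fragments per kilobase of transcript, scaled to the size of the library), and differences are on the scale of log2(FPKM + 1), which understates the change of low genes. The libraries held an estimated 4010000 to 9090000 fragments. The lowest number was that of the IOP-treated retina of mouse 6, and the others held at least 6880000. Rod markers summed to 33950 to 63210 FPKM in every library, so the labelled tissue was present. The 12 lens markers, all of them detected, summed to 69.8 to 297 FPKM in 6 libraries and to 3802 to 8837 FPKM in the control retina of mouse 1 and in all IOP-treated retinas but that of mouse 3. RNA came from whole retina, so that fewer cells of a type and less RNA per cell cannot be told apart.

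Mt3, Mt2 and Mt1 lie side by side on the plus strand of chromosome 8 (GENCODE, GRCm38), at chr8:94152607-94154146, chr8:94172664-94173568 and chr8:94179082-94180327. Their transcripts share no stretch of 50 bases with another gene, so that reads of this length could be assigned to 1 of them. Slc30a1 lies at chr1:191906767-191913247 (plus strand), Slc30a3 at chr5:31086106-31108237 (minus strand) and Slc39a14 at chr14:70303469-70351425 (minus strand). All are protein-coding genes. The 250 bases before the RefSeq start (GRCm38.p6) are shown for the 3 metallothioneins and for Slc30a1, the exporter best known as an MTF1 target. Matches to the core of the metal response element, the site MTF1 binds, differ in number among these windows. Capitals mark the core of that element, searched as TGCACNC and TGCGCNC on both strands. The Mt2 window is chr8:94172368-94172617, the Mt1 window chr8:94178839-94179088, the Mt3 window chr8:94152357-94152606 and the Slc30a1 window chr1:191906531-191906780, all on the plus strand.
Mt2: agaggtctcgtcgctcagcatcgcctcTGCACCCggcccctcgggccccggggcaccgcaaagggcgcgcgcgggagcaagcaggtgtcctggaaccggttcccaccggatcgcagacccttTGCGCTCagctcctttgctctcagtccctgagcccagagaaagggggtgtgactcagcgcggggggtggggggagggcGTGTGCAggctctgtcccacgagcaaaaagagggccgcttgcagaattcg
Mt1: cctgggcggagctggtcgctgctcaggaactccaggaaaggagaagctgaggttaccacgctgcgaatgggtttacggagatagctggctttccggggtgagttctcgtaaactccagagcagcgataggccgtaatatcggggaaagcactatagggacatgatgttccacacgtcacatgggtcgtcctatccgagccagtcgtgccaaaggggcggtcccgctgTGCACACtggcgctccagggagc
Mt3: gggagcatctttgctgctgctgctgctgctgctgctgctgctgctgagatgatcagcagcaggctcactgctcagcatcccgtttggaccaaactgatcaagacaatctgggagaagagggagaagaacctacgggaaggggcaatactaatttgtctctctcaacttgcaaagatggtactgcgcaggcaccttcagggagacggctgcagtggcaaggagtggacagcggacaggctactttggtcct
Slc30a1: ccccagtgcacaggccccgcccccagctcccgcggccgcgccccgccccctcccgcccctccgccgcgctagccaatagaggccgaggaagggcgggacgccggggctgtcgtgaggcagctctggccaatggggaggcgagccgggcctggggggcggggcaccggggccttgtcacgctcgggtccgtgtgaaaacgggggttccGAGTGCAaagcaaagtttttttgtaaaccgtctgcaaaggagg

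The Mt2 window held 3 cores, beginning 223, 128 and 50 bases before the start, and at least 3 were found in 1.26% of the 32851 RefSeq windows of this length. The Mt1 window held 1 core, 23 bases before the start, and the Slc30a1 window held 1, on the minus strand, 43 bases before it. At least 1 core was found in 21.4% of all windows, and none in the Mt3 window. With the 50 bases after the start added, the counts were 4 in Mt2, 3 in Mt1, 2 in Slc30a1 and 1 in Mt3, and windows of 300 bases with at least as many made up 0.517%, 1.97%, 7.11% and 25.7% of all. Slc30a3 has 2 windows, with 1 core and none. A core of the antioxidant response element, searched as TGACNNNGC on both strands, was found once in Mt2 and once in Slc30a1, and in 10.2% of windows. These matches describe letters and not sites in use. Their number depends on where the window is placed and does not give the number of elements of a gene.

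The first question was which of the 6 genes differed between IOP-treated and control retinas. Mt2 and Mt1 rose over the 6 mice, Mt2 by 1.58 and Mt1 by 0.96 on the log2 scale, and Mt3 did not pass the test. None of the 3 zinc transporters passed it. Over all 6 mice 2 of the 6 genes were called (limma, adjusted p under 0.05), where 12.2% of the 18509 genes tested were called, 6.76% higher and 5.44% lower. The median difference of the 6 genes was 0.05 and that of all genes 0.0089. Without GCV 0 of the 6 genes were called, against 1.65% of all genes. With GCV 1 of the 6, Mt2, was called, against 1.8% of all genes.

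The ranges of the groups give the same comparison without a fit. Without GCV all 3 IOP-treated retinas were above all 3 control retinas for 3 of the 6 genes, Mt1, Mt2 and Slc30a1, which held for 11.7% of all genes, and none of the 6 lay below (8.81%). With GCV the IOP-treated retinas were above for Mt1 and Mt2 (14.5% of all genes) and below for Slc30a3 (15.3%). Across GCV and no GCV, all 6 IOP-treated retinas were above all 6 control retinas for 1 gene, Mt2, as for 5.47% of all genes.

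**Figure D1:**
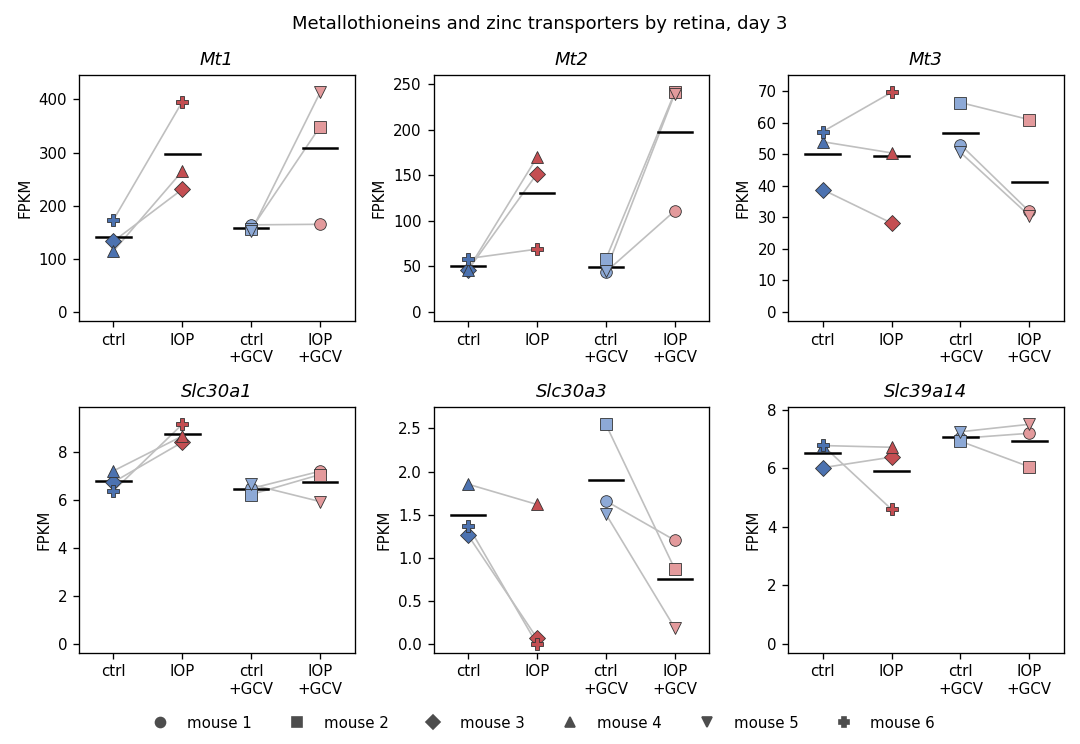
FPKM of the 6 genes (y axis) in the 4 groups (x axis), with a symbol for each mouse, a grey line between the eyes of a mouse and a black bar at the group mean, left out where a retina is listed at 0. For Mt2 the 6 IOP-treated retinas sit between 69.0 and 241 FPKM, above the control retinas at 43.9 to 58.6 FPKM.

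Mt2 encodes a metal-inducible metallothionein. In control retinas without GCV its level was 46.0 FPKM in mouse 3, 46.4 in mouse 4 and 58.6 in mouse 6, and in the IOP-treated retinas of the same mice it was 151, 169 and 69.0 FPKM. In mice given GCV the control retinas were at 43.9 FPKM in mouse 1, 57.9 in mouse 2 and 45.2 in mouse 5, and the IOP-treated retinas at 111, 241 and 239 FPKM. The IOP-treated eye was thus higher in 6 of 6 mice, by 1.18-fold in mouse 6 and by 2.52-fold to 5.29-fold in the others. Group means were 50.3 ± 7.17 and 130.0 ± 53.6 FPKM (SD, n = 3) without GCV, and 49.0 ± 7.73 and 197 ± 74.5 FPKM (SD, n = 3) with GCV. Over the 6 mice the limma difference was 1.58 (95% confidence interval 1.02 to 2.15, adjusted p = 0.00522), and with the mouse as a replicate block its adjusted p was 0.0227. An exact two-sided sign-flip test over the 6 mice gave an unadjusted p of 0.03125, the smallest value possible, with 6 genes tested in this way.

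Taken by treatment, the Mt2 call was less firm. With GCV the difference was 1.91 (1.11 to 2.71, adjusted p = 0.0283), but in the paired fit with the mouse as a replicate block the adjusted p was 0.0808. It was also lost when the control retina of mouse 1, 2 or 5 was left out (adjusted p = 0.113, 0.0882 and 0.112) and when the pressure-treated retina of mouse 2 or 5 was (0.0503 and 0.102). Without GCV the difference was 1.26 (0.45 to 2.06, adjusted p = 0.132), and leaving out mouse 6's IOP-treated retina, the library with the fewest fragments, made it 1.66 (adjusted p = 0.0419). Over all 6 mice Mt2 was called in each of 12 fits that left out 1 library, with differences of 1.46 to 1.79.

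Mt1, the neighbouring inducible metallothionein, had the highest FPKM of the 6 genes in every library. Control retinas without GCV were at 133 FPKM in mouse 3, 115 in mouse 4 and 173 in mouse 6, and the IOP-treated retinas at 231, 265 and 396 FPKM. With GCV the control retinas were at 164 FPKM in mouse 1, 156 in mouse 2 and 152 in mouse 5, and the IOP-treated retinas at 165, 349 and 413 FPKM. The eyes of mouse 1 were nearly equal (a ratio of 1.01), while in the other 5 mice the IOP-treated eye was 1.74-fold to 2.72-fold higher. Group means were 140.4 ± 30.1 and 297 ± 87.0 FPKM (SD, n = 3) without GCV and 157 ± 6.12 and 309 ± 129 FPKM (SD, n = 3) with GCV.

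The Mt1 difference over 6 mice was 0.96 (0.46 to 1.47, adjusted p = 0.0270, limma), and 0.0422 in the paired fit with a replicate block. The exact two-sided sign-flip test gave an unadjusted p of 0.03125, with the IOP-treated eye higher in 6 of 6 mice. After median-ratio scaling its p was 0.0625. The limma call was lost when the control retina of mouse 3, 4, 1, 2 or 5 was left out (adjusted p = 0.0643, 0.0728, 0.0540, 0.0651 and 0.0640), or mouse 5's IOP-treated retina (0.0533). By treatment the differences were 1.06 without GCV (0.35 to 1.77, adjusted p = 0.151) and 0.87 with GCV (0.15 to 1.58, adjusted p = 0.184). With mouse 1's IOP-treated retina left out, the difference with GCV was 1.27 (adjusted p = 0.0392).

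The ratio of these neighbours was lower in the IOP-treated than in the control retina of 5 mice and higher in mouse 6, a difference that was not tested. The ratio of Mt1 to Mt2 FPKM was 2.47 to 3.74 in the 6 control retinas and 1.45 to 1.73 in 5 of the IOP-treated retinas. In the IOP-treated retina of mouse 6 it was 5.74, against 2.96 in the control retina, with Mt1 at 396 FPKM, among the highest values, and Mt2 at 69.0 FPKM, the lowest of the IOP-treated retinas. Mt2 in that library rests on an estimated 57.5 to 91.5 fragments, depending on the transcript length taken.

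Mt3, the neuronal metallothionein, went the other way in most mice, without passing the test. Control retinas without GCV were at 38.8 FPKM in mouse 3, 54.0 in mouse 4 and 57.1 in mouse 6, and the IOP-treated retinas at 28.2, 50.4 and 69.6 FPKM. With GCV the control retinas were at 53.0 FPKM in mouse 1, 66.4 in mouse 2 and 50.6 in mouse 5, and the IOP-treated retinas at 31.9, 60.9 and 30.5 FPKM. The groups overlapped, and the IOP-treated eye was lower in 5 of 6 mice. The difference over 6 mice was -0.30 (-0.83 to 0.23, adjusted p = 0.436), and the exact sign-flip p was 0.15625. It was -0.13 with mouse 3's IOP-treated retina left out and -0.46 with that of mouse 2 left out, and was called in neither fit. Mt4, the metallothionein of stratified epithelia, is listed at 0 in all 12 libraries.

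**Figure D2:**
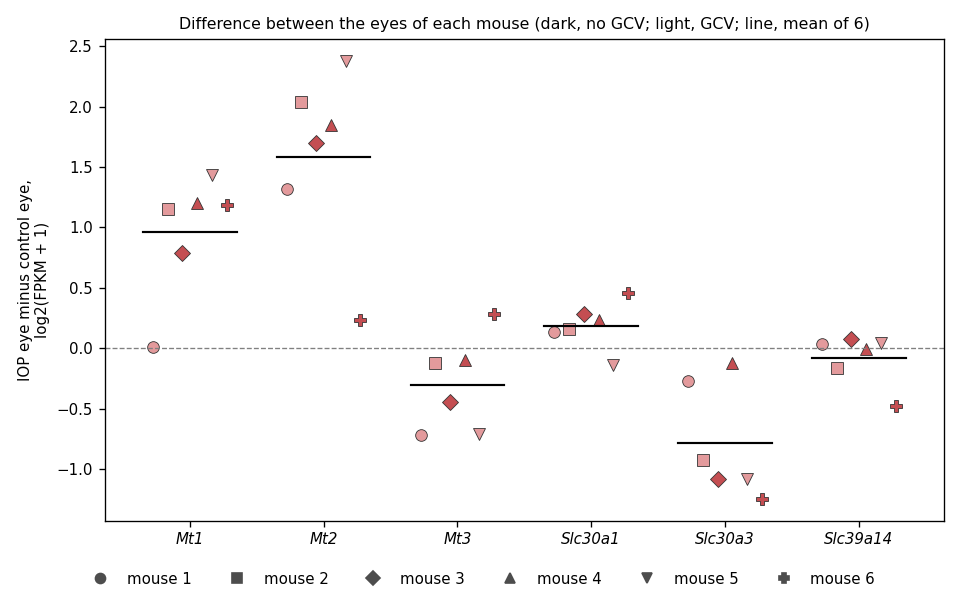
Difference in log2(FPKM + 1) between the IOP-treated and the control eye (y axis) for the 6 genes (x axis), with a symbol for each of 6 mice, dark without and light with GCV, and a black line at the mean. Mt1 and Mt2 are above 0 and Slc30a3 is below 0 in all 6 mice, with Mt1 of mouse 1 (0.0093) and Mt2 of mouse 6 (0.23) closest to 0.

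Counted by mouse, 2 of the 6 genes (Mt1 and Mt2) were higher in the IOP-treated eye of all 6 mice, against 10.7% of all genes. For Mt1 this rests on mouse 1, whose eyes differed by only 0.0093 (log2). A further gene, Slc30a3, was lower in all 6, against 10.1%. Slc30a3 (ZnT3) loads zinc into synaptic vesicles of neurons. It was the lowest of the 6 genes, at 1.26 FPKM in the control retina of mouse 3, 1.85 in mouse 4 and 1.37 in mouse 6. The IOP-treated retinas of these mice were at 0.0686 and 1.62 FPKM and, in mouse 6, listed at 0. With GCV the control retinas were at 1.66 FPKM in mouse 1, 2.55 in mouse 2 and 1.51 in mouse 5, and the IOP-treated retinas at 1.20, 0.870 and 0.186 FPKM.

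The Slc30a3 values rest on at most 37.3 estimated fragments in a library. The difference over 6 mice was -0.79 (-1.35 to -0.23), which did not pass the adjusted threshold (adjusted p = 0.0644, limma) and did not pass it in the paired fit with a replicate block (0.0550). The exact two-sided sign-flip test gave an unadjusted p of 0.03125, with 6 genes tested in this way. With mouse 4's IOP-treated retina, which kept 1.62 FPKM, left out, the gene was called, with a difference of -1.01 over all mice (adjusted p = 0.00371) and of -1.26 without GCV (adjusted p = 0.0169). With every library the differences were -0.82 without GCV (adjusted p = 0.251) and -0.76 with GCV (adjusted p = 0.278). The size depends on the pseudocount: with 0.1 FPKM in place of 1 the difference was -1.91 over 6 mice (adjusted p = 0.0755), -2.36 without GCV and -1.46 with GCV, and the gene was called in none of these.

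Sums of ganglion-cell markers were lowest in the retinas with the lowest Slc30a3, though not in the same order, and no correlation of the sums with Slc30a3 was computed. The 12 markers summed to 1022 to 2063 FPKM in control retinas, to 270.2, 1154 and 500.3 FPKM in the IOP-treated retinas of mice 3, 4 and 6, and to 842, 663 and 444 FPKM in those of mice 1, 2 and 5. The 12 markers of amacrine and horizontal cells summed to 279 to 392 FPKM in control retinas, and to 112, 286 and 153 FPKM in mice 3, 4 and 6 and 229.5, 199 and 109.6 FPKM in mice 1, 2 and 5 after IOP elevation. The IOP-treated retina of mouse 4, with the highest Slc30a3 of the IOP-treated retinas, also had the highest sum of both lists among them. Over 6 mice 9 of 12 ganglion-cell markers and 6 of 12 amacrine and horizontal markers fell, where 5.44% of all genes did, and no marker of either list rose. Of 10 bipolar-cell markers 0 were called, while 9 had a negative difference and the median was -0.602. The part of these cells in the Slc30a3 values was not tested.

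**Figure D3:**
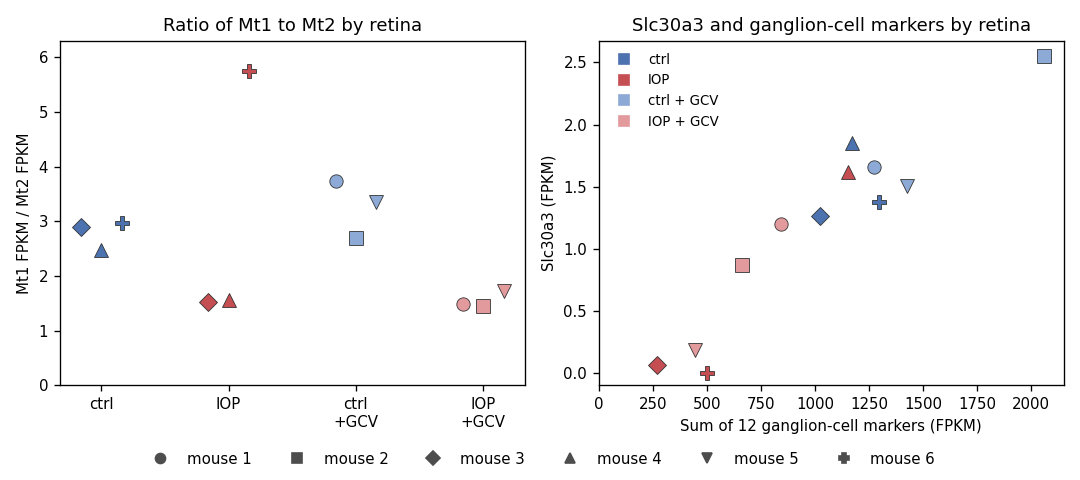
Left, the ratio of Mt1 to Mt2 FPKM (y axis) in each retina by group (x axis). Right, Slc30a3 FPKM (y axis) against the summed FPKM of 12 ganglion-cell markers (x axis), with a symbol for each mouse and a colour for each group. The IOP-treated retina of mouse 6 stands at a ratio of 5.74, and the 3 retinas with Slc30a3 at or below 0.186 FPKM have marker sums of 270.2 to 500.3 FPKM.

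Slc30a1 (ZnT1) exports zinc across the plasma membrane. Without GCV the control retinas were at 6.76 FPKM in mouse 3, 7.23 in mouse 4 and 6.40 in mouse 6, and the IOP-treated retinas at 8.43, 8.69 and 9.18 FPKM. With GCV the control retinas were at 6.50 FPKM in mouse 1, 6.24 in mouse 2 and 6.66 in mouse 5, and the IOP-treated retinas at 7.22, 7.08 and 5.95 FPKM. The eyes were thus separated in the 3 mice without GCV and overlapped in those with GCV. The difference without GCV was 0.33 (0.07 to 0.58), with an unadjusted p of 0.0162 and an adjusted p of 0.196 (limma). With GCV it was 0.05 (-0.20 to 0.30, adjusted p = 0.884). The difference between these effects was -0.28 (-0.63 to 0.08, adjusted p = 0.997), so that the groups were not shown to differ in this respect. Over 6 mice the IOP-treated eye was higher in 5 of 6, by 0.19 (adjusted p = 0.146, exact sign-flip p = 0.09375).

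Slc39a14 (ZIP14) takes up zinc, iron and manganese and is known as an acute-phase gene of liver. Control retinas without GCV were at 6.02 FPKM in mouse 3, 6.78 in mouse 4 and 6.78 in mouse 6, and the IOP-treated retinas at 6.38, 6.72 and 4.60 FPKM. With GCV the control retinas were at 7.02 FPKM in mouse 1, 6.92 in mouse 2 and 7.25 in mouse 5, and the IOP-treated retinas at 7.20, 6.05 and 7.50 FPKM. The groups overlapped, and the IOP-treated eye was higher in 3 of 6 mice. The difference over 6 mice was -0.08 (-0.32 to 0.15, adjusted p = 0.622, exact sign-flip p = 0.46875). The interval covers changes of that size in either direction, and it does not show that the gene stayed the same.

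**Figure D4:**
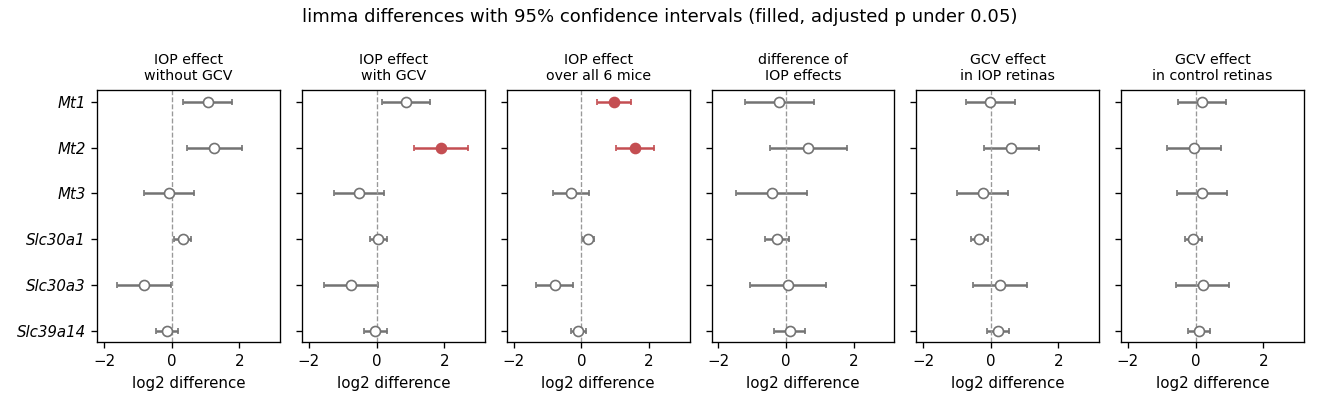
limma differences in log2(FPKM + 1) (x axis) with 95% confidence intervals for the 6 genes (y axis) in 6 comparisons, 1 panel each, with filled red points for an adjusted p under 0.05. Filled points appear for Mt2 with GCV (1.91) and for Mt1 (0.96) and Mt2 (1.58) over all 6 mice.

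In level, Mt1 stood above Mt3 and Mt2, these above the importer Slc39a14 and the exporter Slc30a1, and Slc30a3 came last. FPKM is a value per length of transcript, but the unit was inferred and the lengths used are not known. Mt1 transcripts, for example, run from 549 to 1085 bases. The order is therefore one of listed values, and levels of different genes compare only roughly. In control retinas Mt2 and Mt3 overlapped (43.9 to 58.6 and 38.8 to 66.4 FPKM), as did Slc39a14 and Slc30a1 (6.02 to 7.25 and 6.24 to 7.23 FPKM), and the other neighbours in this order did not. In 5 of the 6 IOP-treated retinas Mt2 was higher than Mt3.

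The next question was whether GCV changed these genes or their response to IOP elevation. No gene of the 18509 tested was called in IOP-treated retinas with against without GCV (0% of all, with 774 at an unadjusted p under 0.05) or in control retinas (0% of all, with 295), and 0 of the 6 genes were called in either (limma). Slc30a1 was lower in IOP-treated retinas with GCV, at 5.95 to 7.22 FPKM, than without, at 8.43 to 9.18 FPKM. The difference was -0.34 (-0.59 to -0.09, unadjusted p = 0.0136, adjusted p = 0.819). It was the only one of the 6 genes for which these groups did not overlap, as for 2.07% of all genes in that direction. In control retinas the GCV group was above the other for Slc39a14 alone (6.92 to 7.25 against 6.02 to 6.78 FPKM), as for 6.01% of all genes, with a difference of 0.10 (-0.23 to 0.43, adjusted p = 1).

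The IOP effects with and without GCV were compared directly by their difference, for which no gene was called (0% of all, with 358 at an unadjusted p under 0.05). For Mt2 the effect was larger with GCV by 0.65 (-0.49 to 1.79, adjusted p = 0.997), for Mt1 it was smaller by 0.19 (difference -0.19, -1.20 to 0.82, adjusted p = 0.997) and for Mt3 the difference was -0.43 (-1.48 to 0.63, adjusted p = 0.997). The Mt2 value was 0.25 with mouse 6's IOP-treated retina left out and 1.02 with that of mouse 1 left out. The intervals of Mt1 and Mt2 include differences as large as their IOP effects over 6 mice.

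To place the 6 genes among the rest of zinc handling, the whole families were counted. Of the 10 zinc exporters, 0 were called over the 6 mice, with a median difference of -0.02, and their mean levels ran from 0.00526 FPKM (Slc30a8) to 60.2 FPKM (Slc30a9). Slc30a3 had the most negative difference of the 10. Of the 14 zinc importers 1 was called, Slc39a1, and the median difference of the list was 0.06. Over all genes 12.2% were called and the median was 0.0089, so that the share of called transporters was not above that of all genes. Of the 4 metallothioneins 3 were tested and 2 were called.

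Slc39a1 (ZIP1), a zinc importer of the plasma membrane, rose where the importer Slc39a14 did not pass the test. Its level was 13.6 to 17.7 FPKM in the 6 control retinas and 24.3 to 42.2 FPKM in the 6 IOP-treated retinas, with no overlap. Its difference was 0.85 without GCV (adjusted p = 0.0267), 0.93 with GCV (adjusted p = 0.0148) and 0.89 over 6 mice (0.65 to 1.13, adjusted p = 0.00118, limma). It was the only transporter of the SLC30 and SLC39 lists called in any IOP comparison.

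**Figure D5:**
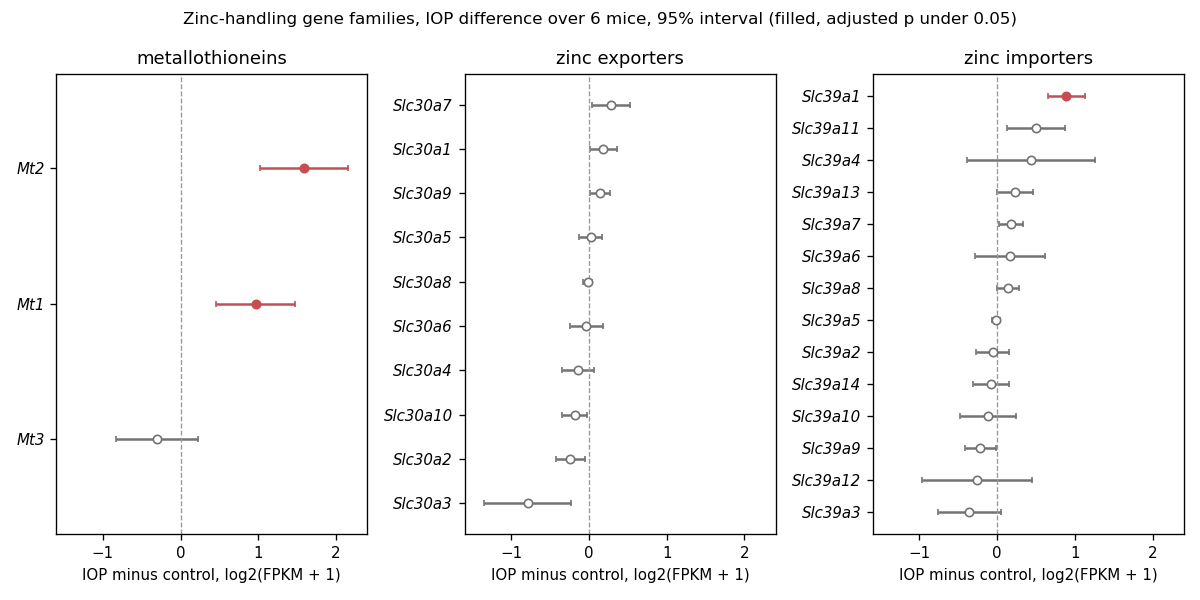
IOP difference over 6 mice in log2(FPKM + 1) (x axis) with 95% confidence intervals for 3 metallothioneins, 10 zinc exporters and 14 zinc importers (y axis, ordered by difference), with filled red points for an adjusted p under 0.05. The filled points are Mt1 (0.96), Mt2 (1.58) and Slc39a1 (0.89), and Slc30a3 (-0.79) is the lowest exporter.

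Metallothioneins also bind copper, and of 18 copper-handling genes 17 were tested. Over 6 mice 2 rose, the ferroxidase gene Cp (1.49, adjusted p = 0.00550) and the metalloreductase gene Steap4 (2.19, adjusted p = 0.0121). A further metalloreductase gene, Steap2, fell by 0.46 (log2, adjusted p = 0.0246), and the median of the list was 0.19. Of all genes 6.76% rose and 5.44% fell. None of the 3 was called with or without GCV alone.

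Of 8 regulators known to act on metallothionein promoters, 2 were called in each IOP comparison, Stat3 and Cebpd. Of all genes 1.65% were called without GCV, 1.8% with GCV and 12.2% over 6 mice. Stat3 is the transcription factor of interleukin-6 signaling, and Cebpd is a factor of the acute-phase response. Stat3 rose from 9.91 to 14.8 FPKM in control retinas to 33.2 to 52.1 FPKM in IOP-treated retinas, a difference of 1.77 over 6 mice (adjusted p = 0.000106). Cebpd was at 2.78 to 4.21 FPKM in control and 17.3 to 57.9 FPKM in IOP-treated retinas, a difference of 3.23 (adjusted p = 0.000131). Mtf1, the zinc sensor itself, differed by 0.03 (-0.20 to 0.26, adjusted p = 0.876). Of 10 glucocorticoid-responsive genes 0 rose and 1 fell, where 6.76% of all genes rose and 5.44% fell. The gene that fell was Tsc22d3, by 0.33 (log2, limma adjusted p = 0.0306). These are RNA levels and do not measure the activity of a regulator. The part of zinc, glucocorticoids or cytokines in the Mt1 and Mt2 differences was not tested.

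Slc30a3 belongs to the synaptic vesicle, and of 10 presynaptic genes 2 fell over 6 mice, Snap25 of the vesicle fusion complex, with a difference of -0.76 (adjusted p = 0.0415), and Rims1 of the active zone, with -1.72 (adjusted p = 0.0242). Of all genes 5.44% fell, and their median difference was 0.0089. The median of the presynaptic list was -0.43, and 9 of 10 had a negative difference. Rims1 stood at 10.2 to 20.0 FPKM in control retinas. In IOP-treated retinas it was at 0.93 FPKM in mouse 3, 8.78 in mouse 4 and 1.13 in mouse 6, and at 6.65, 5.70 and 2.14 FPKM in mice 1, 2 and 5, the order of Slc30a3 but for mice 3 and 6.

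Markers of reactive glia, microglia, leukocytes and lens were higher in IOP-treated retinas over 6 mice, whereas the median differences of the Müller glia and blood lists were below 0. Over 6 mice 6.76% of all genes were called higher and 5.44% lower. The 10 markers of astrocytes and reactive glia summed to 116 to 249 FPKM in control and 607 to 1796 FPKM in IOP-treated retinas. Of these 10, 8 rose over 6 mice while 1 fell. The 12 Müller glia markers summed to 2434 to 2959 FPKM in control and 2622 to 3839 FPKM in IOP-treated retinas, with 2 called higher and 2 lower and a median difference of -0.13 (log2). Leukocyte markers, of which 11 of 12 are in the table, summed to 11.1 to 67.5 and to 251 to 2682 FPKM, and microglial markers (12) to 80.8 to 129.7 and to 328 to 869 FPKM, with 8 of the 11 and 10 of the 12 called higher and 0 lower. Blood markers, of which 8 of 10 are in the table, summed to 56.2 to 193 FPKM in control and 25.6 to 524 FPKM in IOP-treated retinas. Over 6 mice limma called 0 of the 8 (0 at an unadjusted p under 0.05). Without GCV 0 were called and 1 was higher at an unadjusted p under 0.05. Their median difference was -0.27 over 6 mice, 0.03 without GCV and -0.55 with GCV. The 12 lens markers were all higher over 6 mice, with 5 called and a median difference of 2.80. In mouse 1, however, their sum was lower in the IOP-treated retina (7444 FPKM) than in the control retina (8837 FPKM). The part of these cells, and of lens tissue, in the Mt1 and Mt2 differences was not tested.

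The genes most like each of the 6 over the 12 libraries were found by Pearson correlation of log2(FPKM + 1) among 12883 genes whose mean reached 1 FPKM. These are descriptions, since the libraries share mice, groups and depth. For Mt2 they were Ifit3 (0.966), Sbno2 (0.965) and Oas1b (0.958), of which Ifit3 and Oas1b are known as interferon-induced genes. For Mt1 they were Myo1e (0.948), Mrps25 (0.944) and Nup93 (0.940), so that the lists of these neighbours had no gene in common. For Slc30a3 Pianp, 6030419C18Rik and Ndrg4 each reached 0.993. For Mt3 they were Slmo1 (0.939), Ywhaz (0.924) and Rab11b (0.914), for Slc30a1 Mir17hg (0.904), 9130221H12Rik (0.867) and Bloc1s4 (0.854), and for Slc39a14 Akap10 (0.924), Snx15 (0.917) and Zbtb8b (0.908). Within groups the correlations were 0.84 to 0.88 for Mt2, 0.84 to 0.91 for Mt1, 0.91 to 0.94 for Mt3, 0.67 to 0.82 for Slc30a1, 0.99 for Slc30a3 and 0.86 to 0.94 for Slc39a14. Among the 6 genes themselves, Mt1 and Mt2 had the highest correlation (0.760), and that of Mt1 with Slc30a3 was -0.740.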

How the data were processed

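The table as deposited by the authors holds FPKM values. No unit is given with it, and FPKM was inferred. Per the study's methods, polyadenylated RNA was sequenced from stranded libraries as paired 50-base reads and counted with HOMER on exons of RefSeq genes. The submitters' processing notes name TopHat2, Bowtie2, Cufflinks, Cuffdiff and build mm10, without their roles. Of 24340 genes, 18509 were above 0 in at least 1 library. Fragment numbers were estimated from 2243 genes that have a single transcript of 1500 bases or more: after subtracting 180 bases from its length, 79.8% to 86.3% of the lowest values came within 0.15 of whole fragments. The method was adjusted with the values in view and is too inexact for a count test or for intervals.

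Groups came from the sample labels. limma 3.58.1 (R 4.3.3) was fitted to log2(FPKM + 1), with 4 group means over 12 libraries, a variance trend and Benjamini-Hochberg adjustment over the 18509 genes, called at an adjusted p under 0.05. No source says whether retinas were processed in separate batches. Both retinas of a mouse come from 1 animal, so the labels pair them: deviations of the eyes of a mouse from their group means correlated at -0.117 to 0.388 over 12910 genes, and the mouse was used as a replicate block in a second fit. Single genes were tested by exact sign flips over 6 mice. The named genes are the 6 genes, genes of fixed zinc, copper, regulator, glucocorticoid and presynaptic lists where called in an IOP comparison, and for each of the 6 the 3 most correlated genes. The 6 genes, lists and tests were chosen with earlier results of these data known. Alternatives were a pseudocount of 0.1, at least 1 FPKM in 3 libraries, only the groups compared, the replicate block, median-ratio scaling, no variance trend, an adjusted p under 0.1 and each library left out in turn. RefSeq promoters were matched by symbol for 5 of the 6 genes (not Slc39a14). Tables used pandas 2.3.3 and figures matplotlib 3.10.9 in Python 3.11.15.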

Additional observations from a re-analysis of the deposited data

How the results depend on the processing

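The rise of Mt2 over 6 mice was called under all 6 other settings and in all 12 fits that left out 1 library. That of Mt1 was called under the same 6 settings and in 6 of 12 such fits. Among these settings, the adjusted p under 0.1 only loosens the threshold and could not lose a call. Of 540 comparisons of a gene's difference with its main value, 502 kept direction and call, 14 lost a call, 5 gained one and 19 changed sign, none of the sign changes in a called difference. With a pseudocount of 0.1, 464 genes were called without GCV, 535 with GCV and 1 for GCV in control retinas. Fitted on only the groups compared, 92 genes were called with GCV, with 0 of the 6 (Mt2 adjusted p = 0.0616), and 1 for GCV in control retinas. With the mouse as a replicate block the counts were 75 without GCV, 144 with GCV, again with 0 of the 6, and 1351 over 6 mice against 2258, and beside Mt2 with GCV the paired fit changed no call of the 6 genes. At an adjusted p under 0.1 they were 607, 780 and 4131, and Slc30a3 was called over 6 mice. With 1 library left out, 23 to 2490 genes were called without GCV (0 to 1 of the 6), 77 to 716 with GCV (0 to 2), 830 to 4515 over 6 mice (1 to 3), 0 to 2 for the difference of IOP effects, 0 to 4 for GCV in IOP-treated retinas and 0 to 3 in control retinas. The counts without GCV and over 6 mice were highest, 2490 and 4515, with mouse 4's IOP-treated retina left out. They were lowest, 23 and 830, when the control retinas of mouse 3 and mouse 4 were left out. Differences that changed sign with a library left out ranged from -0.376 to 0.261 (Mt3 without GCV), -0.226 to 0.00564 and -0.085 to 0.050 (Slc39a14 without and with GCV), -0.453 to 0.206, -0.188 to 0.506 and -0.0368 to 0.195 (Mt1, Slc30a3 and Slc39a14, difference of IOP effects), -0.268 to 0.391 and -0.590 to 0.0473 (Mt1 and Mt3, GCV in IOP-treated retinas) and -0.162 to 0.0735 (Mt2, GCV in control retinas). Why counts moved was not tested. Median-ratio factors lay between -0.00192 and 0.0197 (log2). Below about 1 FPKM, as for Slc30a3 after IOP elevation, a value rests on few fragments.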
